A study of Mus musculus with 16 samples.

Results

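The values described here are the differences between 2 responses to imiquimod (IMQ) in mouse ear skin: the IMQ minus vehicle change in miR-146a-/- ears minus the IMQ minus vehicle change in wild-type ears, called the interaction below. All 16 of the 16 samples enter it, since each of the 4 groups holds one corner of the difference. RNA of ear flaps was measured on 16 Affymetrix Mouse Gene ST 2.1 arrays. There were 4 arrays of wild-type ears given vehicle, 4 of wild-type ears given IMQ, 4 of miR-146a knockout ears (B6/Mir-146a-/-) given vehicle and 4 of knockout ears given IMQ. All mice had the C57BL/6J background, were 8 to 11 weeks old and were housed free of specific pathogens. The IMQ groups received 31.25 mg of Aldara cream, which holds 5% IMQ, on the right ear once a day for 3 days, and the ear flaps were collected on day 4. The knockout label carries no cell type, so the deletion is described only as that of the animal. No source used here says what the vehicle contained, or whether the 4 samples of a group came from separate mice; a p-value here therefore reflects the spread among these arrays, which may be technical.

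MiR-146a is a short RNA that is induced by NF-kB signalling and reduces the output of Irak1 and Traf6, adaptors of the Toll-like receptor and IL-1 receptor pathways, and so acts as a brake on them. IMQ activates Toll-like receptor 7 and, rubbed onto mouse skin, produces a psoriasis-like thickening of the epidermis with influx of leukocytes. In an interaction on the log2 scale, a positive value means that the IMQ minus vehicle change was more positive in the knockout, and a negative value that it was more negative there. A value of 1 is a ratio of 2 between the fold changes of the genotypes.

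The mature sequences of the deleted microRNA and of the other mouse microRNA with its seed are shown first, because the second comes from another chromosome and carries the same seed. Both were taken from RefSeq (GRCm38.p6) and matched by name, and capitals mark the seed, bases 2 to 8 from the 5′ end.
mmu-miR-146a-5p: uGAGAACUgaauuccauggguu
mmu-miR-146b-5p: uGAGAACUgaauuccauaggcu
The first lies at chr11:43374435-43374456 on the minus strand and the second at chr19:46342790-46342811 on the plus strand. Both have 22 bases and differ at 2 of them, at positions 18 and 21, outside the seed. The probe set of the miR-146a gene (symbol Mir146) read 1.83, 1.62, 2.16 and 1.85 in wild-type vehicle, 2.07, 2.03, 2.0 and 1.78 in wild-type IMQ, 1.78, 1.81, 1.79 and 1.83 in knockout vehicle and 1.89, 1.93, 1.73 and 1.83 in knockout IMQ ears. All 4 groups overlapped at a mean level in the 0.58th percentile of the genes, so it gives no check of the genotypes. Its interaction was -0.06 ± 0.16 (SE, limma adjusted p = 0.930). For Mir146b the interaction was 0.01 ± 0.19 (SE, limma adjusted p = 0.997).

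The interaction was tested for 30943 genes with limma, and genes with an adjusted p under 0.05 are called. The call was made for 387 genes, 1.25% of those tested. Of these 164 were higher, 0.530% of the genes, and 223 were lower, 0.721%. A change of at least 2-fold between the genotypes' responses was reached by 210 of the called genes, 81 higher and 129 lower, and 36 genes had an adjusted p under 0.01. The median interaction over all genes was 0.01. Over the called genes the highest positive values belonged mainly to proteins of the cornified envelope and antimicrobial peptides, with epidermal cytokines also called higher, and the lowest negative values to proteins of the muscle sarcomere, with genes of the circadian clock also called lower. The plot of the 2 IMQ effects shows where the called genes lie.

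**Figure D1:**
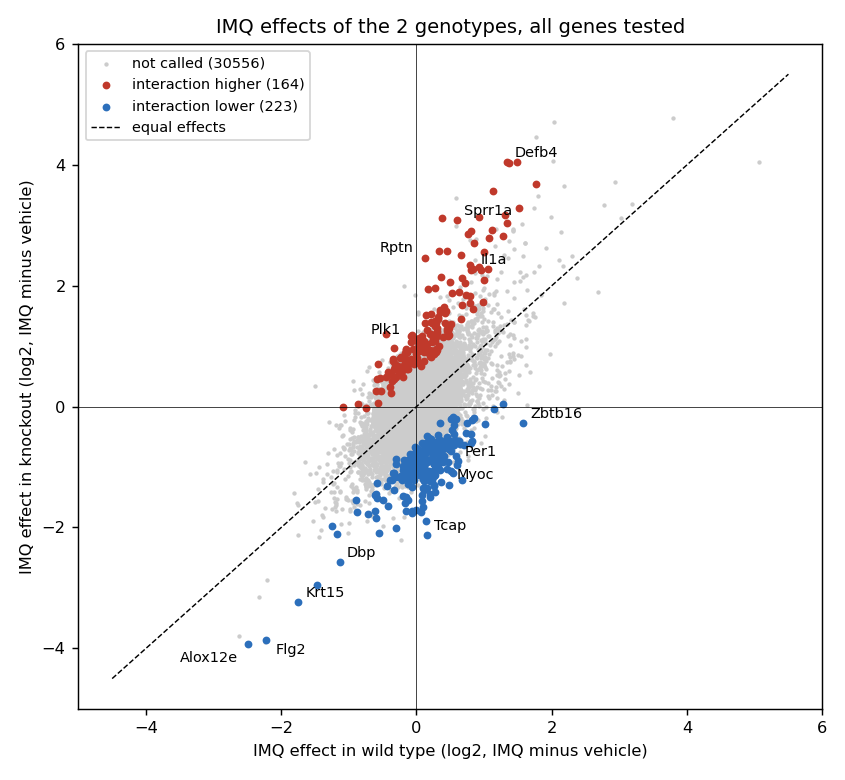
Each point is 1 of the 30943 genes, with its IMQ minus vehicle effect in wild-type ears on the horizontal axis and in knockout ears on the vertical axis (log2, means of 4 arrays each). The 164 genes called higher lie above the line of equal effects and the 223 called lower lie below it.

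Whole-array features were alike over most of the series. Arrays of 1 group correlated with r from 0.975 to 0.986 across genes. The keratinocyte markers Krt5, Krt14, Krt1 and Krt10 had group means from 11.11 to 12.43, so the defining markers of the labelled tissue were present. Within the knockout vehicle group 2 arrays stood apart, array 3, which had the lowest array weight (0.61) and the lowest muscle level of its group, and array 4, which had the lowest level of small proline-rich genes. Skeletal muscle, which lies in the ear beneath the skin, also moved with the groups. The mean of 37 muscle genes lay between 6.74 and 7.61 in wild-type vehicle, 6.78 and 7.44 in wild-type IMQ, 7.35 and 8.37 in knockout vehicle and 6.40 and 7.12 in knockout IMQ ears. With that mean added to the fit as a covariate, limma called 0 genes (2380 had an unadjusted p under 0.05, the smallest adjusted p was 0.253). The covariate itself was highest in knockout vehicle and lowest in knockout IMQ ears, so this fit cannot tell it apart from the interaction. All 164 genes called higher and all 223 called lower kept their sign in that fit. Their medians were 0.804 in place of 0.999 and -0.79 in place of -1.05, and their median SE was 0.287 in place of 0.205. Single genes moved unequally. Myoz1, a member of the muscle mean, went from -1.81 to -0.07, Pygm from -1.69 to -0.01 and Plk1 from 1.16 to 0.15. Sprr1a went from 2.48 to 1.75 and Krt15 from -1.49 to -1.61. Leaving out knockout vehicle arrays 3 and 4 together gave 314 calls, of which 220 were shared, and all 387 genes kept their sign. The genes were called on these same arrays, so a kept sign is a description and carries no test. Leaving out array 3 alone gave 824 calls and leaving out array 4 alone gave 166. In bulk tissue, fewer cells of a type and less RNA per cell cannot be told apart, which holds for each tissue list below.

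The interaction of a gene equals its knockout minus wild-type difference in IMQ ears minus that in vehicle ears, so it can arise in either treatment. For genes called higher the median difference was -0.67 in vehicle ears and 0.34 in IMQ ears. The vehicle difference was the greater in size for 143 of the 164 (87.2%, against 53.3% of all genes). For genes called lower the medians were 0.50 in vehicle and -0.55 in IMQ ears, and the vehicle difference was the greater for 113 of the 223 (50.7%). The 2 differences had opposite signs in all 164 higher genes and in 222 of the 223 lower genes, against 54.2% of all genes. Since a gene is called on the difference between these 2 quantities, these shares are a description and carry no test.

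**Figure D2:**
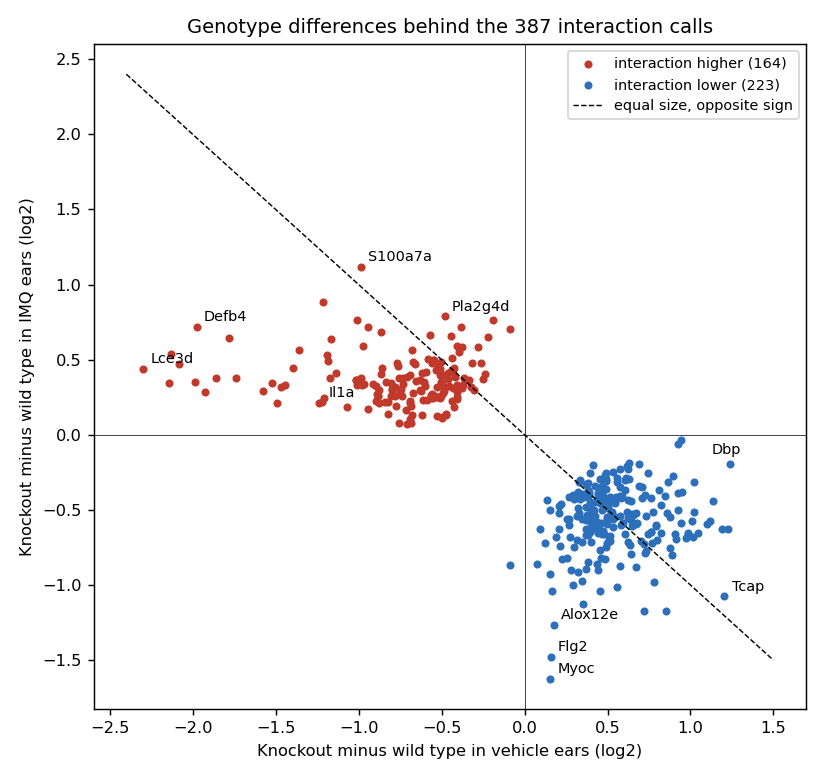
Each point is 1 of the 387 called genes, with the knockout minus wild-type difference in vehicle ears on the horizontal axis and in IMQ ears on the vertical axis (log2). Genes called higher, in red, reach further along the vehicle axis (medians -0.67 and 0.34), and genes called lower, in blue, have medians of 0.50 and -0.55.

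Sorted by the signs of the 2 IMQ effects, 112 of the 164 higher genes (68.3%, against 34.0% of all genes with a positive interaction) had a positive effect in both genotypes that was greater in the knockout. A further 50 (30.5%, against 38.1%) were lower with IMQ in wild-type ears and higher in knockout ears, Plk1 among them. The last 2, Prss8, a membrane serine protease of epithelia that is named here after its values were seen, and a gene with a predicted name, had a smaller negative effect in the knockout. Of the 223 lower genes, 140 (62.8%, against 39.7% of all genes with a negative interaction) were higher with IMQ in wild type and lower in knockout, and 82 (36.8%, against 40.0%) were lower in both and more so in the knockout. These signs are those of the group means, and the effects within a genotype were not tested here.

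The genes of the cornified envelope, the protein shell that keratinocytes build as they die and form the skin surface, gave the highest positive values. Of 14 small proline-rich (Sprr) genes, whose products transglutaminases cross-link into the envelope, 6 were higher and none lower, with a median interaction of 1.46. Of 6 genes of the Lce3 group of late cornified envelope proteins, which is induced in injured or psoriatic epidermis in humans, 4 were higher, with a median of 1.48 (2 to 4 higher with any 1 of the 16 arrays left out, 2 without knockout vehicle array 4). The Lce1 group, expressed in the surface layer of normal skin, differed in its counts: 0 of 14 were higher and 1, Lce1m, was lower, with a median of 0.10. All-gene background shares for these counts, and for the list counts that follow, are the 0.530% higher and 0.721% lower given above. The difference between the lists was not tested.

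Sprr1a read 10.55, 9.78, 9.90 and 9.30 on the wild-type vehicle arrays, 10.63, 10.60, 10.56 and 10.15 with IMQ, 7.59, 7.93, 8.30 and 7.15 on the knockout vehicle arrays and 10.91, 10.58, 11.05 and 10.77 with IMQ. The 4 knockout vehicle arrays lay below all 12 others, while the 2 IMQ groups overlapped. The IMQ effect was 0.60 in wild type and 3.09 in the knockout (log2), an interaction of 2.48 ± 0.33 (SE, limma adjusted p = 0.0042) or a 5.59-fold ratio. Lce3d followed the same order, with 9.73, 8.90, 8.84 and 8.39, then 9.50, 9.42, 9.35 and 9.09 in wild type, and 6.67, 7.38, 7.44 and 5.17, then 9.74, 9.75, 10.01 and 9.62 in the knockout. Its knockout IMQ arrays lay above all wild-type IMQ arrays, and its interaction of 2.74 ± 0.51 (SE, limma adjusted p = 0.0144) was the highest of the called genes. The other Sprr genes called were Sprr2e (2.55), Sprr1b (2.23), Sprr2j-ps (1.93), Sprr2g (1.80) and Sprr2h (1.55). Lce3c (1.78), Lce3a (1.55) and Lce3b (1.34) were also called. Sprr2g and Sprr2j-ps had knockout vehicle means at or below the median of an array, so their fold changes rest on dim values. Probe sets within the Sprr2 and Lce3 families can share sequence, so these genes are not independent measurements. Sprr3 had the lowest value of its list, -0.03 ± 0.18 (SE, limma adjusted p = 0.971).

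**Figure D3:**
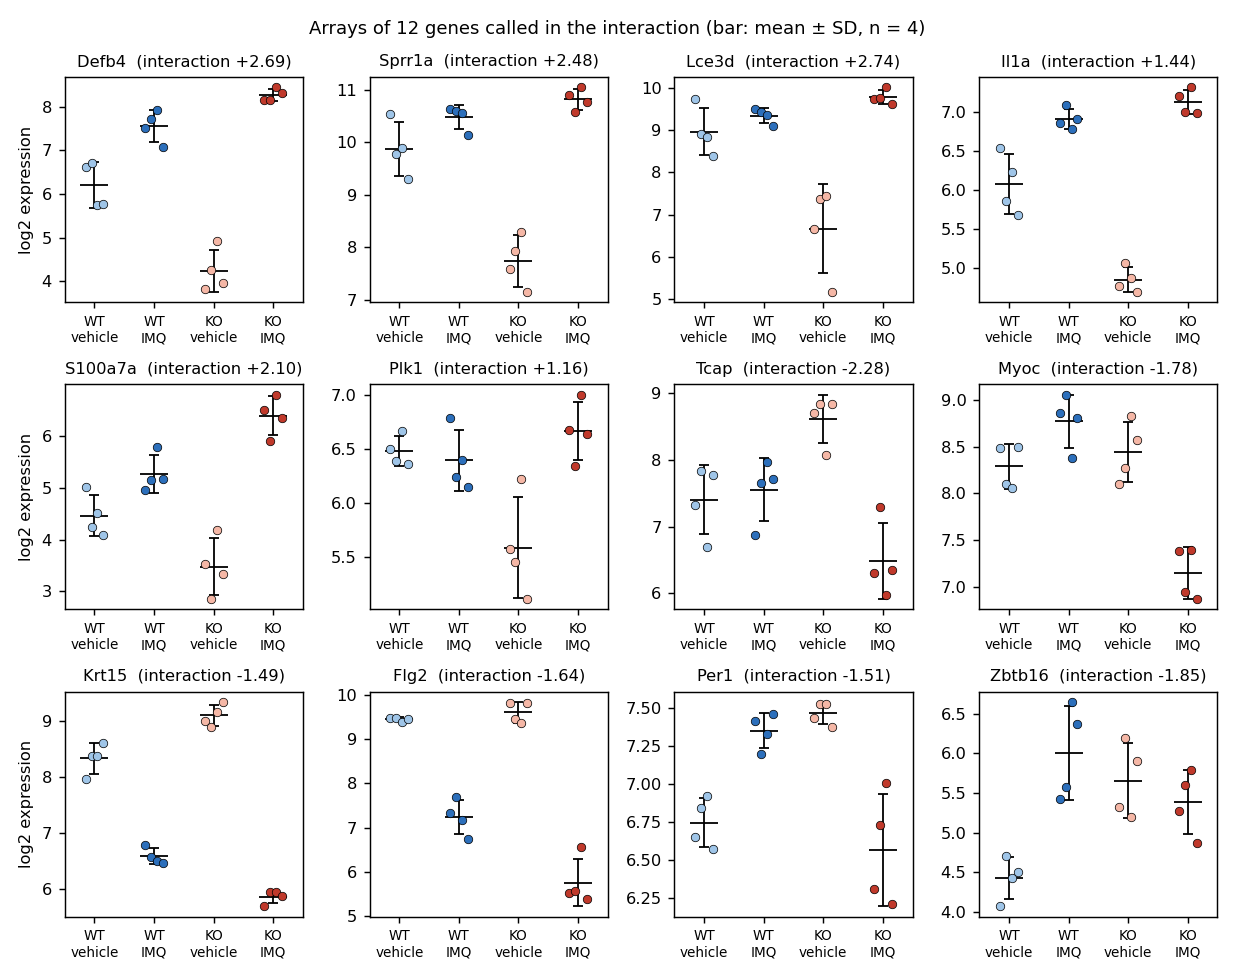
Each panel shows the log2 expression of 1 of 12 called genes on every array, with points for the arrays and bars for the group mean ± SD (n = 4). The knockout vehicle arrays of Defb4, Sprr1a, Lce3d, Il1a and Plk1 lie below all wild-type vehicle arrays, and the knockout IMQ arrays of Myoc, Krt15, Flg2 and Per1 lie below all wild-type IMQ arrays.

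The stress keratins Krt6a, Krt6b, Krt16 and Krt17 replace the usual keratins in wounded and psoriatic epidermis. The list that holds them and Krt75 had the highest median of the 42 lists, 1.73. Of its 5 members 1 was called, Krt75 (0.97 ± 0.23, SE, limma adjusted p = 0.0467), and none of the stress keratins just named. Krt6a had a higher value than any called gene, 2.88 ± 0.77, with an adjusted p of 0.0765 in limma. Its knockout vehicle arrays read 7.42, 7.63, 9.36 and 4.88, a wider spread than the 9.64 to 10.41 of wild-type vehicle, 10.48 to 10.80 of wild-type IMQ or 10.64 to 10.91 of knockout IMQ arrays. Krt6b (2.41, adjusted p = 0.126), Krt16 (1.73, adjusted p = 0.0764) and Krt17 (1.33) did not pass limma's threshold either. Without knockout vehicle array 3 the list had 4 calls, without array 4 it had 3, without both it had 4, and over all single arrays left out it had 0 to 4.

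Genes of differentiated epidermis moved in both directions. Of 38 genes of the list, 6 were higher and 3 lower, with a median of 0.39. The list also holds Krt15, a keratin of basal cells, which is 1 of the 3 lower genes. Repetin (Rptn), a calcium-binding envelope precursor, had an interaction of 2.34 ± 0.40 (SE, limma adjusted p = 0.0109). Its arrays read 8.73, 8.17, 8.48 and 8.44 and then 8.84, 8.44, 8.95 and 8.09 in wild type, and 6.85, 6.40, 7.18 and 5.44 and then 8.75, 9.23, 8.59 and 9.15 in the knockout. Only the knockout vehicle group stood apart from the others. The transglutaminases Tgm3 (1.13) and Tgm1 (0.83), which cross-link the envelope, the ceramide synthase Cers3 (1.0), the protease Klk7 (0.81), which cuts the links between surface cells, and its inhibitor Spink5 (0.60) were higher too. Without knockout vehicle arrays 3 and 4 the counts were 3 higher and 3 lower, and over single arrays left out they were 3 to 12 higher and 3 to 4 lower, with 12 higher without knockout vehicle array 1.

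The genes of this list that were lower had another arrangement of groups. Filaggrin-2 (Flg2), a filament-binding protein of the upper epidermis, read 9.48, 9.49, 9.38 and 9.46 in wild-type vehicle and 9.81, 9.46, 9.36 and 9.81 in knockout vehicle ears, and these groups overlapped. With IMQ it read 7.32, 7.68, 7.18 and 6.75 in wild type and 5.51, 5.56, 6.56 and 5.39 in the knockout, which did not overlap. The interaction was -1.64 ± 0.31 (SE, limma adjusted p = 0.0161), of which the IMQ ears held -1.48 and the vehicle ears 0.16. Alox12e, a lipoxygenase of the epidermis, was similar, with -1.44 ± 0.23 (SE, limma adjusted p = 0.00685) and a knockout minus wild-type difference of -1.27 in IMQ and 0.18 in vehicle ears (log2). Krt15, a keratin of resting basal cells and of hair follicle stem cells, read 7.96, 8.38, 8.37 and 8.61 in wild-type vehicle, 6.79, 6.58, 6.51 and 6.46 in wild-type IMQ, 8.99, 8.90, 9.16 and 9.34 in knockout vehicle and 5.69, 5.94, 5.95 and 5.88 in knockout IMQ ears. No 2 of its 4 groups overlapped, and the interaction was -1.49 ± 0.19 (SE, limma adjusted p = 0.0042).

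Antimicrobial proteins formed the next group, with 6 of 20 higher, 1 lower and a median of 0.81. Beta-defensin 4 (Defb4) read 6.62, 6.72, 5.74 and 5.76 in wild-type vehicle, 7.51, 7.72, 7.92 and 7.07 in wild-type IMQ, 3.81, 4.26, 4.91 and 3.96 in knockout vehicle and 8.17, 8.15, 8.45 and 8.33 in knockout IMQ ears. No groups overlapped: the knockout arrays were the lowest with vehicle and the highest with IMQ. The interaction was 2.69 ± 0.35 (SE, limma adjusted p = 0.0042), a 6.48-fold ratio. Defb3, another beta-defensin, had the same order, with knockout vehicle arrays from 2.48 to 4.22 and knockout IMQ arrays from 7.24 to 7.51, and an interaction of 2.67 ± 0.46 (SE, limma adjusted p = 0.0111). S100a7a, the mouse relative of human psoriasin, differed from these in that the IMQ ears held more of the difference. It read 4.96, 5.16, 5.79 and 5.17 in wild-type IMQ and 6.51, 5.90, 6.80 and 6.34 in knockout IMQ ears, while the vehicle groups overlapped (4.09 to 5.01 and 2.85 to 4.19). Its interaction was 2.10 ± 0.37 (SE, limma adjusted p = 0.0119), from 1.12 in IMQ and -0.99 in vehicle ears. Slpi, an inhibitor of neutrophil elastase (1.86), Pglyrp3, which binds bacterial peptidoglycan (1.68), and Defb14 (1.10) were also higher. The gene called lower was Lyz1, a lysozyme closely related in sequence to Lyz2, at -1.89 ± 0.37 (SE, limma adjusted p = 0.0193). S100a8 (1.69, adjusted p = 0.163) and S100a9 (1.50, adjusted p = 0.0967), the subunits of calprotectin carried by neutrophils and stressed keratinocytes, did not pass limma's threshold. Lcn2, Camp and Reg3g had 0.57, -0.06 and 0.21.

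Of the IL-1 and IL-36 ligands and receptors, 5 of 16 were higher, with a median of 0.46, and these 5 were all ligands. Il1a, the epidermal alarm cytokine IL-1 alpha, read 6.54, 5.87, 6.23 and 5.68 in wild-type vehicle, 6.86, 7.09, 6.79 and 6.92 in wild-type IMQ, 4.78, 5.07, 4.88 and 4.70 in knockout vehicle and 7.21, 7.01, 7.32 and 6.99 in knockout IMQ ears. The knockout vehicle arrays lay below all others and the IMQ groups overlapped. The interaction was 1.44 ± 0.22 (SE, limma adjusted p = 0.00572). Il33, a nuclear alarmin of epithelia, had the same arrangement, with knockout vehicle arrays from 5.45 to 5.78 against 6.32 to 6.76 in wild type, and 1.14 ± 0.17 (SE, limma adjusted p = 0.00572). The 3 IL-36 agonist genes were all called: Il1f6, which encodes IL-36 alpha (1.25), Il1f8, which encodes IL-36 beta (1.10), and Il1f9, which encodes IL-36 gamma (1.09). The IL-1 and IL-36 receptor antagonists Il1rn (0.69, adjusted p = 0.0744) and Il1f5 (0.58, adjusted p = 0.0788) did not pass limma's threshold, and the receptors Il1r1, Il1r2 and Il1rl2 had -0.05, -0.04 and 0.33. Il1b, the leukocyte cytokine, had a high value without a call, 2.69 ± 1.04 (SE, limma adjusted p = 0.245). Its arrays spread widely, from 4.64 to 8.54 in wild-type vehicle and from 2.47 to 6.80 in knockout vehicle ears.

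The axis of IL-23, IL-17 and IL-22, which drives psoriasis, had 0 of 20 genes called by limma, against 1.25% of all genes. Its median was 0.12, and 4 genes had an unadjusted p under 0.05. Il17a, Il22 and Il12b had interactions of 0.06, -0.06 and 0.05, Il17f had 0.93 ± 0.51 (SE, limma adjusted p = 0.475) and Il23a had 0.65 ± 0.23 (SE, limma adjusted p = 0.191).

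The lists for the pathway that miR-146a is known to restrain had no call, where 1.25% of all genes were called. At that share a list of this size can hold no call without differing from other genes. Of 45 Toll-like receptor and NF-kB genes 0 were called by limma, with a median of 0.05 and 8 at an unadjusted p under 0.05. Of 25 reported miR-146a targets 0 were called, with a median of 0.02 and 3 at an unadjusted p under 0.05. Over all genes 4067 of 30943 had such a p. Irak1 read 6.24, 5.75, 5.94 and 6.03 in wild-type vehicle, 5.89, 6.03, 5.71 and 6.18 in wild-type IMQ, 5.88, 5.90, 5.92 and 6.20 in knockout vehicle and 6.03, 6.12, 6.07 and 5.61 in knockout IMQ ears. All 4 groups overlapped, and the interaction was 0.02 ± 0.20 (SE, 95% interval -0.40 to 0.44, limma adjusted p = 0.984). Traf6 had 0.29 ± 0.15 (SE, 95% interval -0.02 to 0.59, limma adjusted p = 0.418). Its arrays lay between 5.39 and 5.89 in all groups, and only the 2 knockout groups did not overlap. Among the NF-kB genes the highest values were those of Bcl3, a nuclear IkB protein (1.12, adjusted p = 0.177), and of the adaptor Myd88 (0.65, adjusted p = 0.116, both limma). Ptgs2, the inducible cyclooxygenase and a reported target, had 1.97 ± 0.52 (SE, limma adjusted p = 0.0713). Tlr7, the receptor of IMQ, had -0.30.

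Leukocyte lists had no call in limma's fit, where 1.25% of all genes were called. The 22 neutrophil genes had a median of 0.13, the 11 neutrophil chemoattractant genes 0.43, the 24 macrophage and monocyte genes -0.19, the 20 CC chemokine genes -0.25 and the 22 T and NK cell genes 0.03. Of these lists 3, 5, 4, 6 and 2 genes had an unadjusted p under 0.05. The neutrophil chemoattractant list also holds the receptor Cxcr2 and the cyclooxygenase Ptgs2, which is counted among the miR-146a targets too. The neutrophil list mean lay between 3.13 and 3.78 in wild-type vehicle, 4.14 and 4.31 in wild-type IMQ, 3.16 and 3.37 in knockout vehicle and 4.29 and 4.56 in knockout IMQ ears. Cxcl5, which attracts neutrophils (1.56, adjusted p = 0.0620), and Ccl3, which attracts monocytes (2.04 ± 0.89, adjusted p = 0.330), did not pass limma's threshold. Of 38 interferon-induced genes 0 were called, with a median of 0.14 and 6 at an unadjusted p under 0.05. Slfn4 (1.76, adjusted p = 0.257) and Ifi27l2a (-1.28, adjusted p = 0.147) lay at the ends of that list. Lists of 12 mast cell genes (median -0.45), 18 complement genes (-0.45), 20 endothelial genes (-0.16), 24 Langerhans cell and class II genes (-0.23) and 25 sterol and lipid genes (0.38) also had 0 calls, with 6, 6, 2, 5 and 14 genes at an unadjusted p under 0.05.

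**Figure D4:**
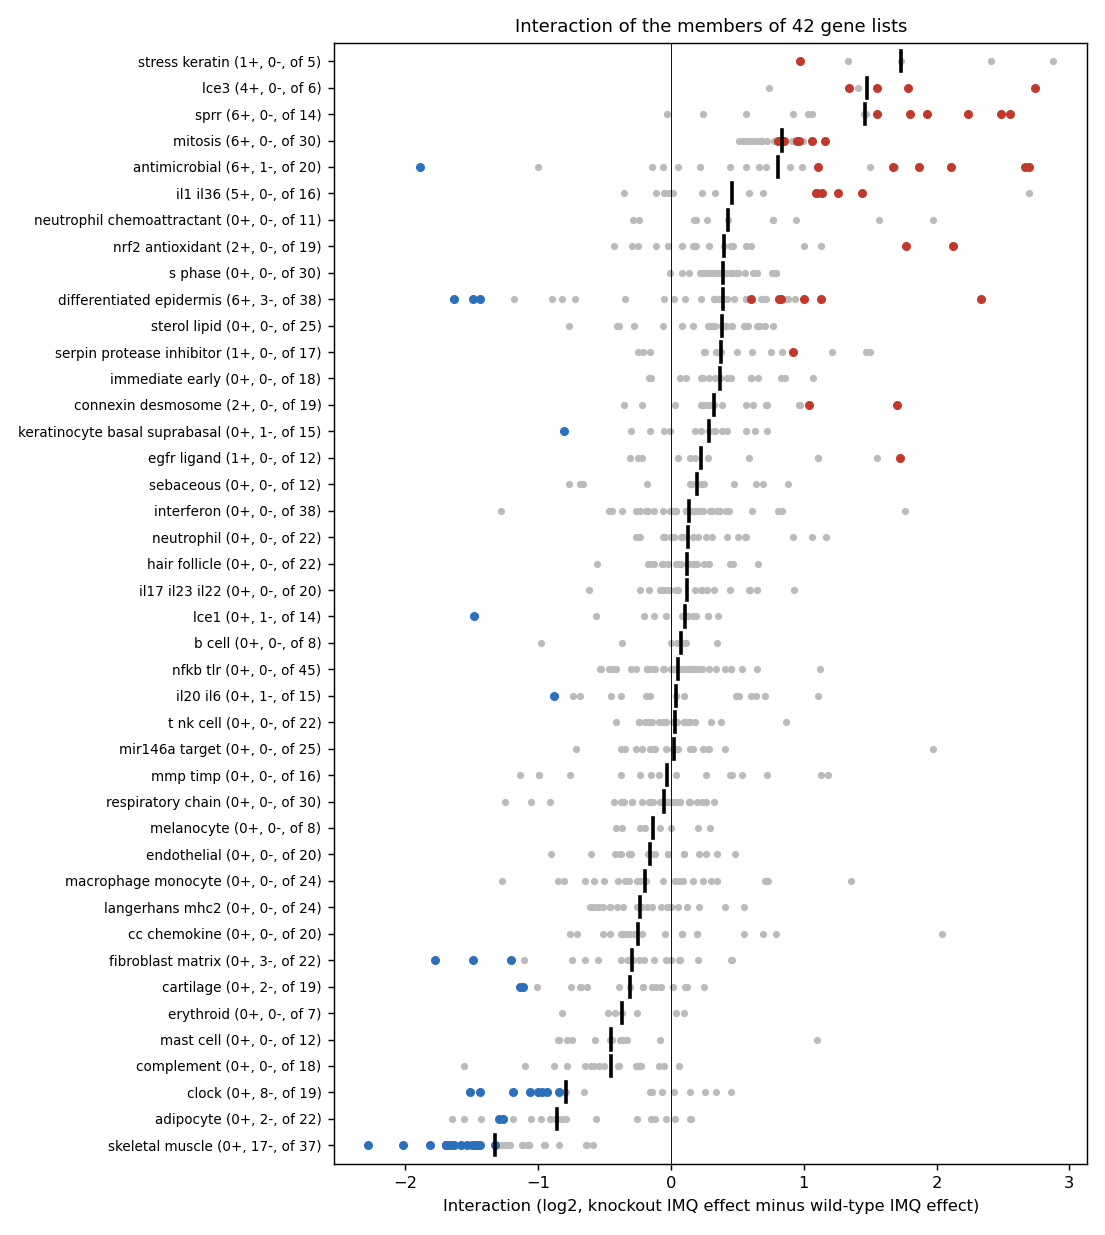
Each row is 1 of 42 gene lists with its measured members as points at their interaction (log2), red for called higher, blue for called lower and grey for the rest, and a bar at the list median, with called and measured members in brackets. The Sprr, Lce3 and stress keratin lists lie furthest to the right and the skeletal muscle, adipocyte and clock lists furthest to the left.

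Growth-related genes were called higher in small numbers. Of 12 ligands and receptors of the EGF family 1 was higher, Hbegf, a growth factor of wounded epidermis. It read 6.48, 5.77, 6.16 and 5.45 in wild-type vehicle, 7.44, 6.82, 6.83 and 7.06 in wild-type IMQ, 4.76, 4.81, 5.40 and 4.12 in knockout vehicle and 7.37, 8.15, 7.74 and 7.01 in knockout IMQ ears, with the vehicle groups apart and the IMQ groups overlapping. The interaction was 1.72 ± 0.38 (SE, limma adjusted p = 0.0338). Of 30 mitotic genes 6 were higher and none lower, with a median of 0.83, and 30 of 30 had a positive value. Plk1, a kinase that drives entry into mitosis, read 6.50, 6.39, 6.66 and 6.36 in wild-type vehicle, 6.78, 6.24, 6.40 and 6.15 in wild-type IMQ, 5.57, 5.45, 6.22 and 5.11 in knockout vehicle and 6.67, 6.34, 7.0 and 6.64 in knockout IMQ ears. The knockout vehicle arrays lay below all wild-type vehicle and knockout IMQ arrays, but array 3 lay above wild-type IMQ array 4, and the wild-type groups overlapped. The interaction was 1.16 ± 0.28 (SE, limma adjusted p = 0.0467). Aurkb, the kinase of the chromosomal passenger complex (1.06), the centromere motor Cenpe (0.96), cyclin B1 (Ccnb1, 0.95), the spindle factor Tpx2 (0.85) and Cdc20 (0.81), which starts anaphase, were the others. The 30 genes of S phase had 0 calls in limma's fit and a median of 0.39, with 29 positive and 12 at an unadjusted p under 0.05. The mitotic count was 14 without knockout vehicle array 3, 1 without array 4 and 5 without both, and leaving out any 1 of 12 of the 16 arrays moved it by over 1.5 times.

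Genes of the antioxidant response had 2 of 19 higher, with a median of 0.40. Gsta4, a transferase that detoxifies products of lipid peroxidation, had 2.12 ± 0.43 (SE, limma adjusted p = 0.023), with 7.33, 7.32, 8.42 and 6.07 in knockout vehicle against 9.28, 8.82, 9.16 and 8.84 in wild-type vehicle ears, which did not overlap. Slc7a11, the cystine transporter that feeds glutathione synthesis, had 1.77 ± 0.36 (SE, limma adjusted p = 0.0207). Of 19 connexin and desmosome genes 2 were higher, both connexins: Gjb2, which encodes connexin 26 (1.70), and Gja1, which encodes connexin 43 (1.04). Their knockout vehicle arrays lay below all wild-type vehicle arrays. The general keratinocyte list, by comparison, had 0 of 15 higher and 1 lower, Dst, which anchors keratin filaments at hemidesmosomes (-0.81). Its median was 0.29, and its mean lay between 9.52 and 9.66, 9.52 and 9.54, 9.31 and 9.49, and 9.52 and 9.63 in the 4 groups, with vehicle before IMQ and wild type before knockout.

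The promoter of Sprr1a is shown because the Sprr, Lce3 and stress keratin genes were high together and AP-1 factors, which bind TGANTCA, are known regulators of envelope genes. RefSeq promoter windows (GRCm38.p6, 250 bases before to 50 after the start) matched 17442 of the genes tested. A gene was counted when any of its windows held the letters. TGANTCA, which reads the same on both strands, stood in 8.39% of these genes and in 21 of 111 genes called higher (18.9%). It stood in 5 of 139 genes called lower (3.60%) and in 9 of 19 genes of the 3 lists (47.4%). Genes of 1 family can have like promoter sequences, so their matches are not independent. Members of the 3 lists that were called higher count in both shares. In Sprr1a, at chr3:92485832-92486131 on the minus strand, TGANTCA occurred 2 times, 146 and 116 bases before the start, in capitals. This window is the first of the gene's RefSeq windows that holds the letters.
Sprr1a: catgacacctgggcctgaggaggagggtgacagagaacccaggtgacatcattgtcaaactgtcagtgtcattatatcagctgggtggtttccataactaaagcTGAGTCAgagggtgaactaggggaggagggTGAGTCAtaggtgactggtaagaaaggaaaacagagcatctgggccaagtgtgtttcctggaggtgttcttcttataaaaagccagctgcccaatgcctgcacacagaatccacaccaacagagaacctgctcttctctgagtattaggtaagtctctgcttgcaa
A match describes the letters of the window and is not a site.

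Many of the genes called higher lie near each other. With genes placed in the order of the RefSeq table, 41 of 147 genes called higher (27.9%) had another such gene within 5 genes on either side, against 4.88% of all genes. For the genes called lower it was 30 of 209 (14.4%) against 7.72%. The runs of at least 3 higher genes were Sprr2e, Sprr2g, Sprr2h, Sprr2j-ps, Sprr1b and Sprr1a on chromosome 3, Lce3a to Lce3d on the same chromosome, Il1f8, Il1f9 and Il1f6 on chromosome 2, 7 kallikrein genes on chromosome 7 and Defb14, Defb4 and Defb3 on chromosome 8. Gene clusters of 1 family have like sequences, and cross-hybridisation between their probes was not tested.

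The lowest interactions belonged to skeletal muscle. Of 37 muscle genes 17 were lower and none higher, with a median of -1.33, and 37 of 37 were negative. Tcap, the telethonin that caps titin at the Z disc, read 7.32, 7.83, 6.70 and 7.77 in wild-type vehicle, 6.87, 7.66, 7.97 and 7.72 in wild-type IMQ, 8.70, 8.83, 8.07 and 8.84 in knockout vehicle and 6.30, 7.30, 5.98 and 6.35 in knockout IMQ ears. The wild-type groups overlapped, the knockout vehicle arrays lay above all others, and the knockout IMQ arrays overlapped both wild-type groups. The interaction was -2.28 ± 0.41 (SE, limma adjusted p = 0.0128), a 4.85-fold ratio. Myh4, the myosin of the fastest fibres, followed with -2.02 ± 0.39 (SE, limma adjusted p = 0.017). Its knockout IMQ arrays, at 8.91, 9.23, 8.29 and 8.33, lay below all wild-type IMQ and knockout vehicle arrays.

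The other muscle genes named were the Z disc protein Myoz1 (-1.81), the M band protein Myom1 (-1.76), the calcium buffer Pvalb (-1.70), Smtnl1 (-1.70), the voltage sensor Cacna1s (-1.70), the glycogen phosphorylase Pygm (-1.69), the creatine kinase Ckm (-1.69), and the calcium release proteins Trdn (-1.66) and Ryr1 (-1.64), all called by limma. In knockout vehicle array 3 the levels of Myoz1, Cacna1s, Ckm and Ryr1 lay apart from and below the other 3 arrays of the group. The muscle count was 27 without that array, 6 without array 4 and 24 without both, and leaving out any 1 of 12 of the 16 arrays moved it by over 1.5 times. The plot of list means gives these levels by array.

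**Figure D5:**
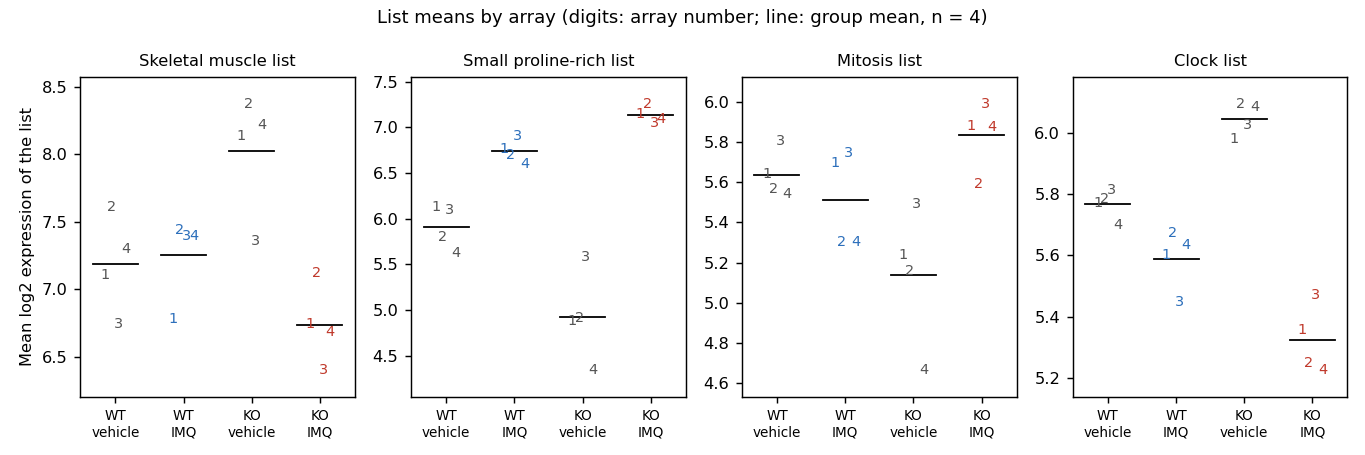
Each panel shows the mean log2 expression of 1 gene list on every array, with digits for the array number and a line for the group mean (n = 4). The muscle mean is highest in knockout vehicle arrays 1, 2 and 4 and lowest in knockout IMQ array 3, the Sprr mean is lowest in knockout vehicle array 4 at 4.34, and the clock mean is highest in the knockout vehicle arrays while its IMQ groups overlap.

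Cartilage, fat and connective tissue genes had fewer calls. Of 19 cartilage genes 2 were lower, with a median of -0.31: Acan, the aggregating proteoglycan of cartilage (-1.14 ± 0.20, SE, limma adjusted p = 0.012), and Chad, a collagen-binding matrix protein (-1.11 ± 0.21, SE, limma adjusted p = 0.0144). Acan read 8.13, 8.24, 8.26 and 8.37 in wild-type IMQ against 7.81, 7.65, 7.84 and 7.07 in knockout IMQ ears, and 7.95, 8.25, 8.12 and 8.21 against 8.52, 8.52, 8.68 and 8.72 with vehicle, with no overlap in either treatment. Col2a1, the main cartilage collagen, had 0.10. Of 22 adipocyte genes 2 were lower, Fabp4, a fatty acid carrier (-1.29), and the lipase Pnpla2 (-1.26), with a list median of -0.86. The adipocyte count was 8 without knockout vehicle array 3 and 0 without array 4, and leaving out any 1 of 13 arrays moved it by over 1.5 times. Of 22 fibroblast and matrix genes 3 were lower, with a median of -0.29, and the count was 6 without knockout vehicle array 3 and 1 without arrays 3 and 4.

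Myoc, a secreted protein of connective tissue known from the eye, had the lowest adjusted p of the 3. It read 8.49, 8.10, 8.06 and 8.50 in wild-type vehicle, 8.86, 9.05, 8.38 and 8.80 in wild-type IMQ, 8.10, 8.27, 8.83 and 8.57 in knockout vehicle and 7.38, 6.95, 7.40 and 6.87 in knockout IMQ ears. Only the knockout IMQ group lay apart, below all others, and the interaction was -1.78 ± 0.26 (SE, limma adjusted p = 0.00458). Angptl7, a secreted angiopoietin-like protein (-1.49), and Omd, a small leucine-rich proteoglycan (-1.21), were the others called. Of the rest of the list, Col1a1 and Col3a1, the main dermal collagens, had 0.20 and 0.46 without a call.

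Genes of the circadian clock were lower in 8 of 19 cases, with none higher and a median of -0.79. The clock is a loop in which Arntl and Clock switch on the Per and Cry repressors and the output factors Dbp, Tef and Hlf. Per1, a repressor that also responds to glucocorticoids, read 6.65, 6.84, 6.92 and 6.57 in wild-type vehicle, 7.42, 7.20, 7.33 and 7.46 in wild-type IMQ, 7.44, 7.53, 7.53 and 7.38 in knockout vehicle and 6.31, 6.73, 7.01 and 6.21 in knockout IMQ ears. IMQ and vehicle arrays lay apart in both genotypes and in opposite directions, and the interaction was -1.51 ± 0.21 (SE, limma adjusted p = 0.0042). Per2 had the same arrangement, with 4.02, 3.80, 4.23 and 4.05, then 4.87, 4.56, 4.48 and 4.69 in wild type, and 4.57, 4.78, 4.57 and 4.87, then 4.25, 4.14, 4.28 and 3.85 in the knockout, and -1.19 ± 0.18 (SE, limma adjusted p = 0.00572).

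Dbp, an output factor of the clock, was arranged differently, with IMQ arrays below vehicle arrays in both genotypes. It read 6.78, 7.32, 6.22 and 6.70 and then 5.66, 6.13, 5.31 and 5.37 in wild type, and 7.93, 8.31, 7.83 and 7.90 and then 5.56, 5.50, 5.19 and 5.43 in the knockout. Its IMQ groups overlapped, its vehicle groups did not, and the interaction was -1.44 ± 0.29 (SE, limma adjusted p = 0.0203). The others called were Hlf (-1.06), the repressor Bhlhe41 (-1.0), Cry2 (-0.97), Per3 (-0.93) and Tef (-0.84). The activators Arntl (0.46, adjusted p = 0.314) and Clock (0.34, adjusted p = 0.299) had positive values that did not pass limma's threshold. No source used here gives the hour of collection. The clock count was 8 without knockout vehicle array 3, 5 without array 4 or without both, and 4 to 8 over all single arrays left out.

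The promoters of Per1 and Tef are shown because the factor pair of Arntl and Clock is known to bind the E-box CACGTG, which reads the same on both strands. Counted by gene as above, it stood in 9.03% of all genes with a window and in 17 of 139 genes called lower (12.2%). It stood in 5 of 17 genes of the clock list (29.4%) and in 3 of the 7 clock genes called lower that have a window (42.9%). Capitals mark it, 166 bases before the start in Per1 (chr11:69098699-69098998, plus strand) and 127 in Tef (chr15:81802423-81802722, plus strand). The window shown is the first of the gene's RefSeq windows that holds the letters, so it was chosen for the match.
Per1: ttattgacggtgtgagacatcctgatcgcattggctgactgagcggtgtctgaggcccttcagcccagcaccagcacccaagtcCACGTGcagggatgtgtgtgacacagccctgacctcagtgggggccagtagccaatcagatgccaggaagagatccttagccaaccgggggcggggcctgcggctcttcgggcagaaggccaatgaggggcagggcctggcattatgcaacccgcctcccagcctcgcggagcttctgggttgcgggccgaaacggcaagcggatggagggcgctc
Tef: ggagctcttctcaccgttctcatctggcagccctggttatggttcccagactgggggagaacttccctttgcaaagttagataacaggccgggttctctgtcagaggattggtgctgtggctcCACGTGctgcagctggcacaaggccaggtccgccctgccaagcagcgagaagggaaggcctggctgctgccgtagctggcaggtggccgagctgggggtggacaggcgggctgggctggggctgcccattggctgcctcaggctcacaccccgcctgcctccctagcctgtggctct
The third gene with a match is Bhlhe41, and the windows of Dbp, Cry2, Hlf and Per3 hold no such letters, which says nothing of sites elsewhere.

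Outside these lists, Zbtb16, a zinc finger transcription factor of innate lymphocytes that is also induced by glucocorticoids, had an interaction of -1.85 ± 0.38 (SE, limma adjusted p = 0.0243). It read 4.07, 4.71, 4.43 and 4.51 in wild-type vehicle, 5.43, 5.58, 6.65 and 6.37 in wild-type IMQ, 5.32, 6.20, 5.20 and 5.91 in knockout vehicle and 5.27, 5.60, 5.79 and 4.87 in knockout IMQ ears. Only the wild-type vehicle group lay apart, below all others. Lifr, the receptor of leukaemia inhibitory factor, was lower (-0.88), and Serpinb2, an intracellular protease inhibitor of keratinocytes, was higher (0.92).

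Most called genes were well above the dim range of the array. The median level over the 16 arrays was 6.54 for genes called higher and 6.02 for genes called lower, against 3.17 for all genes. A group mean at or below the highest array median of 3.28 occurred in 15 of the higher and 11 of the lower genes, and in all 4 groups in 8 and 3. Predicted or clone names were carried by 20 of the higher and 33 of the lower genes, which were not named.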

How the data were processed

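Total RNA of ear flaps was labelled with biotin and hybridised to Affymetrix Mouse Gene ST 2.1 arrays, per the labels' protocols. The table the authors deposited holds log2 values of 41345 transcript clusters, for which the submitters' processing notes name Affymetrix Expression Console; summarisation, version and genome build were not given in the sources used here. Over the table the log2 values reach from 1.25 to 13.29, hold 2 decimals and have array medians of 3.21 to 3.28, and they were used without further scaling. What offset or centring the summary used stays unknown.

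Of the clusters 32471 carry a symbol and 8874 none. Where a symbol had several clusters (909 symbols), the cluster with the highest overall mean was kept, leaving 30943 genes, with no filter on dim genes. The 4 group means were fitted over all 16 arrays with lmFit and eBayes of limma 3.58.1 under R 4.3.3, which left 12 residual degrees of freedom and a prior of 6.18. The contrast was the knockout IMQ minus vehicle difference minus the wild-type one. Benjamini-Hochberg adjustment ran over all genes, with a call under 0.05, and every adjusted p given comes from limma. Single values were compared by whether the 4 arrays of 2 groups overlapped. The fit was tested on simulated data. The array numbers are those in the titles. Precision is limited by the number of arrays.

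The text names, among called genes without predicted or clone names, the 15 with the highest and the 15 with the lowest interaction, up to 4 members of each of 42 lists by size, and always Mir146, Irak1 and Traf6; a few list members are not reported here and were left out of the lists; other members are given as parts of a list's count. Members and lists were chosen with earlier results of these data known, and a list is described by its count and median without a test of the list. RefSeq tables of assembly GRCm38.p6 gave sequences and gene order; 25466 of the symbols occur there and 1356 occur as a synonym. Same-numbered arrays of different groups deviated together little or not at all (24 pairs, r from -0.08 to 0.11), so no block was used. Between the vehicle groups of the genotypes r was positive for every number, from 0.05 to 0.11. Alternatives were a filter on dim genes, quantile normalization, median centring, trended and robust eBayes, array weights, the array number as a block, other choices of cluster, the muscle list mean alone or with the adipocyte list mean as covariates, each array left out, and knockout vehicle arrays 3 and 4 left out together.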

Additional observations from a re-analysis of the deposited data

Results flagged for a closer look

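The effect of IMQ differed between the genotypes, by the test of the difference itself, for 387 genes, and the genes named among them are listed here with their interaction (log2). The positive values were those of Lce3d (2.74), Defb4 (2.69), Defb3 (2.67), Sprr2e (2.55), Sprr1a (2.48), Rptn (2.34), Sprr1b (2.23), Gsta4 (2.12), S100a7a (2.10), Sprr2j-ps (1.93), Slpi (1.86), Klk6 (1.86), Klk10 (1.84), Sprr2g (1.80), Lce3c (1.78), Slc7a11 (1.77), Hbegf (1.72), Gjb2 (1.70), Lce3a (1.55), Il1a (1.44), Il1f6 (1.25), Plk1 (1.16), Il33 (1.14), Aurkb (1.06), Gja1 (1.04) and Serpinb2 (0.92). The negative values were those of Tcap (-2.28), Myh4 (-2.02), Lyz1 (-1.89), Zbtb16 (-1.85), Myoz1 (-1.81), Myoc (-1.78), Myom1 (-1.76), Pvalb (-1.70), Smtnl1 (-1.70), Cacna1s (-1.70), Pygm (-1.69), Ckm (-1.69), Trdn (-1.66), Ryr1 (-1.64), Flg2 (-1.64), Per1 (-1.51), Angptl7 (-1.49), Krt15 (-1.49), Lce1m (-1.48), Dbp (-1.44), Fabp4 (-1.29), Omd (-1.21), Per2 (-1.19), Acan (-1.14), Chad (-1.11), Hlf (-1.06), Lifr (-0.88) and Dst (-0.81).

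Within the 4 arrays of a group, a single array lay far from the other 3 in 11 of 176 sets of values examined, where chance gives about 1 in 20. In knockout vehicle array 3, Sprr2g read 4.0 against 2.86 to 3.0 on the other arrays of the group, Myoz1 5.59 against 6.49 to 6.61, Cacna1s 5.85 against 7.04 to 7.21, Ckm 8.32 against 9.24 to 9.31 and Ryr1 7.23 against 8.02 to 8.18. In wild-type IMQ array 1, Myoz1 read 4.29 against 5.44 to 5.53, Myom1 6.63 against 7.40 to 7.46, and the muscle list mean 6.78 against 7.40 to 7.44. The others were Sprr1a at 10.15 in wild-type IMQ array 4 against 10.56 to 10.63, Flg2 at 6.56 in knockout IMQ array 3 against 5.39 to 5.56, and Irak1 at 6.20 in knockout vehicle array 4 against 5.88 to 5.92.

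Among the 8874 transcript clusters with no symbol, which enter no comparison above, 5 passed limma's threshold when all 41345 clusters were fitted, 4 higher and 1 lower.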

How the results depend on the processing

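Called genes numbered 387 (164 higher, 223 lower, 210 of at least 2-fold). A filter on dim genes gave 723 calls (330 higher, 393 lower), trended and robust eBayes 652 (321 higher), array weights 569 (259 higher), and the fit over all clusters 144 (56 higher, 88 lower, 96 of at least 2-fold). With the array number as a block 439 were called, 341 of them shared. Same-numbered arrays deviated together little or not at all (r over 0.1 in 1 of 24 pairs), so the block follows a number, not a known pairing. Quantile normalization (406), centring (375) and the other choices of cluster (385 and 380) stayed within 1.5 times. With the muscle mean, or the muscle and adipocyte means, as covariates limma called 0 genes, 0 higher, 0 lower and 0 of at least 2-fold, with 2380 and 2397 at an unadjusted p under 0.05 and smallest adjusted p-values of 0.253 and 0.247. Leaving out 1 array gave 149 to 824 calls, 56 to 341 higher, 93 to 483 lower and 103 to 420 of at least 2-fold. The count moved by over 1.5 times without wild-type vehicle arrays 1 (149) and 3 (172), wild-type IMQ arrays 2 (173) and 4 (162), knockout vehicle arrays 2 (238), 3 (824) and 4 (166), wild-type vehicle array 2 (257), and knockout IMQ arrays 1 (199) and 4 (220). Of 54 called genes named, 46 were still called without knockout vehicle arrays 3 and 4. None was called under every alternative, since the covariate fits called 0 genes, and many lost the call under other alternatives too. The call was lost in 2 of 28 alternatives for Sprr1a, but in 16 for Plk1, 17 for Gjb2 and 19 for Cacna1s.

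Among the values of genes under the alternatives, 4494 kept direction and side of the threshold, 362 lost the call, 124 gained one and 48 changed sign. Irak1, at 0.02, became -0.0047 with quantile normalization and lay between -0.0633 and 0.1358 with 1 array left out, and Mir146 lay between -0.1608 and 0.0192. With the muscle mean as a covariate the sign turned for Ccl11 (0.0932), Retn (0.0464), Sfn (-0.0155), Tnc (-0.1371), Kdr (0.149), Cpa3 (0.4082), Mgl2 (0.1779), Hba-a2 (0.4167), Hbb-b2 (0.5508), Alas2 (0.0322), Egr1 (-0.5886), Cox6a2 (0.242), Cox8b (0.3338), Cox7a1 (0.2612), Serping1 (0.0545) and C3 (0.1445). With both means it turned for Pygm (0.0322), which was called at -1.69, and for Cxcl3 (-0.1174), Ccl11 (0.2106), Retn (0.2714), Cfd (0.0881), Cidec (0.0445), Sfn (-0.0637), Kdr (0.2268), Cpa3 (0.5997), Mgl2 (0.2447), Cd80 (-0.0449), Cd3e (0.0179), Hba-a2 (0.3057), Hbb-b2 (0.5577), Alas2 (0.1234), Ifi27l2a (0.1625), Egr1 (-0.604), Cox6a2 (0.3076), Cox8b (0.3439), Cox7a1 (0.3619), Serping1 (0.1818) and C3 (0.2444). Counts within lists stayed within 1.5 times in 2069 cases and moved further in 283. With 1 array left out, 0 to 2 genes of the EGF family, 0 to 3 antioxidant genes and 1 to 4 connexin and desmosome genes were higher, and 0 to 1 Lce1 genes lower. The cause of these changes was not tested. Signal over background was not used here, so dim genes are judged only by their level.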

Other observations

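The groups in this part were put together after their values were seen, so their counts describe these data only. Over all genes tested, 0.530% were called higher and 0.721% lower. Of 10 kallikrein-related proteases of the epidermis, which cut the links between cells at the skin surface, 7 were called higher by limma and none lower, with a median interaction of 1.03. They were Klk6 (1.86), Klk10 (1.84), Klk13 (1.56), Klk9 (1.31), Klk12 (1.10), Klk8 (0.95) and Klk7 (0.81). Along chromosome 7 each lies within 5 genes of the next. Klk10 read 7.88, 7.44, 7.66 and 7.46 in wild-type vehicle, 8.39, 8.28, 8.35 and 8.06 in wild-type IMQ, 6.24, 6.20, 6.77 and 5.64 in knockout vehicle and 8.82, 8.67, 8.96 and 8.42 in knockout IMQ ears, with no overlap between any of the 4 groups. Klk14 (0.74, adjusted p = 0.0755), Klk11 (0.65, adjusted p = 0.0987) and Klk5 (0.71, adjusted p = 0.141) did not pass limma's threshold. Of 12 genes of retinoid transport and metabolism 3 were higher and 0 lower, with a median of 0.105, 7 positive and 5 negative values. Those called were the dehydrogenase Dhrs9 (1.77) and the binding proteins Rbp2 (1.36) and Crabp2 (1.24). Aldh1a1, which makes retinoic acid, had -0.93 (limma adjusted p = 0.0904).

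Of 12 genes known to respond to glucocorticoids 6 were lower and none higher, with a median of -1.05. These were Zbtb16 (-1.85), Per1 (-1.51), Fbxo32 (-1.45), Klf9 (-1.40), Tsc22d3 (-1.38) and Klf15 (-1.17). Fkbp5 (-0.94, adjusted p = 0.143), Sgk1 (-0.07) and Dusp1 (0.42, adjusted p = 0.632) did not pass limma's threshold. Fbxo32 and Klf15 are also expressed in muscle, whose list mean was the highest in knockout vehicle and the lowest in knockout IMQ ears. Of 116 small nucleolar and Cajal body RNAs, which guide the modification of other RNAs, 11 were lower and none higher, between -1.40 and -0.68. Their median was -0.35 against 0.01 for all genes, and 102 of them had a negative value.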
